A study of Homo sapiens with 14 samples.

Results

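The genes described here are 9 regulators tied to the fetal and adult stages of blood formation, followed across 14 RNA-seq libraries of K562, a line derived from human chronic myeloid leukemia with erythroid features. They were chosen by name and are BCL11A, ZBTB7A and MYB, LIN28A and LIN28B, IGF2BP1, IGF2BP2 and IGF2BP3, and HMGA2. All 9 were among the 24729 genes of the read count table, and all 9 passed the filter on low counts that left 14406 genes for testing. The WT group (n = 2) is labelled as wild-type K562. The other 4 groups (n = 3 each) carried the FB-dCas9-BirA system, in which a catalytically inactive Cas9 with a Flag and biotin-acceptor tag is expressed next to the biotin ligase BirA. They differed in the guide RNA. The non-targeting guide was sgGal4, and the guides sgHS2, sgHBG and sgHS1-5 were directed at regulatory elements of the β-globin cluster. The sgHS2 guide is named after hypersensitive site HS2 of the locus control region, sgHBG after the fetal globin genes and sgHS1-5 after several hypersensitive sites. All guide groups carried dCas9 and BirA, so sgGal4 served as their common control, and WT showed the level without the system. Whether dCas9 and BirA acted equally in these groups was not tested, so a difference from sgGal4 can lie with either group. Nothing in the labels says whether a group was a pool or a clone, or that its libraries came from separate cultures. The p values therefore cover the spread between these libraries, which may be technical.

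BCL11A and ZBTB7A (also called LRF) are zinc finger repressors that silence the fetal γ-globin genes in adult red cells, and MYB is a transcription factor of blood progenitors whose lowering raises fetal hemoglobin. LIN28A and LIN28B are RNA-binding proteins that block the maturation of let-7 microRNAs, which themselves repress LIN28B, HMGA2 and IGF2BP mRNAs through short sites in the 3′ untranslated region (3′ UTR). LIN28B and IGF2BP1 are fetal-stage proteins of the red cell lineage that reduce BCL11A protein when they are present, while HMGA2 is a chromatin protein of fetal stem cells.

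The libraries held 5694448 to 11335831 counted reads, with the 3 sgHS1-5 libraries the shallowest. Levels are in CPM, the reads of a gene per library of standard size, scaled for library composition by the TMM method of edgeR. Without that scaling, the limit set by finding 0 reads, taken as 3 reads, was 0.265 to 0.527 CPM, depending on the library. All 10 K562 markers had reads in every library, and their summed level ranged from 1769 to 2850 CPM. A few libraries stood apart from the rest of their groups. In sgGal4 1, the longest 20% of genes were lower than in the sgGal4 mean by a median log2 of -0.41 and the shortest 20% higher by 0.47, and sgHS2 2 deviated the same way by -0.17 and 0.19. Libraries sgHS1-5 2 and 3 held 139 transcripts, other than the 9 genes, that were nearly absent outside sgHS1-5 (a mean of 0.1 CPM or less over the other groups, and 5 CPM or more in any sgHS1-5 library). Their sum was 78.1 CPM in sgHS1-5 1, 2107 CPM in sgHS1-5 2 and 509 CPM in sgHS1-5 3, against 3.32 to 6.28 CPM in the other 11 libraries. In whole cultures, fewer cells with a transcript and less of it per cell cannot be told apart.

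LIN28A and HMGA2 differed widely between groups. LIN28A was nearly lost in sgHS2 and low in sgHS1-5, while sgHBG held the highest level. HMGA2 was at 1 read in the 2 WT libraries together and present in every guide group, most in sgGal4 and in 2 of the 3 sgHS1-5 libraries. BCL11A was almost undetected outside those same 2 libraries. LIN28B, ZBTB7A, MYB and the 3 IGF2BP genes were expressed in every library, and their fitted differences between groups stayed under 1 on the log2 scale.

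**Figure D1:**
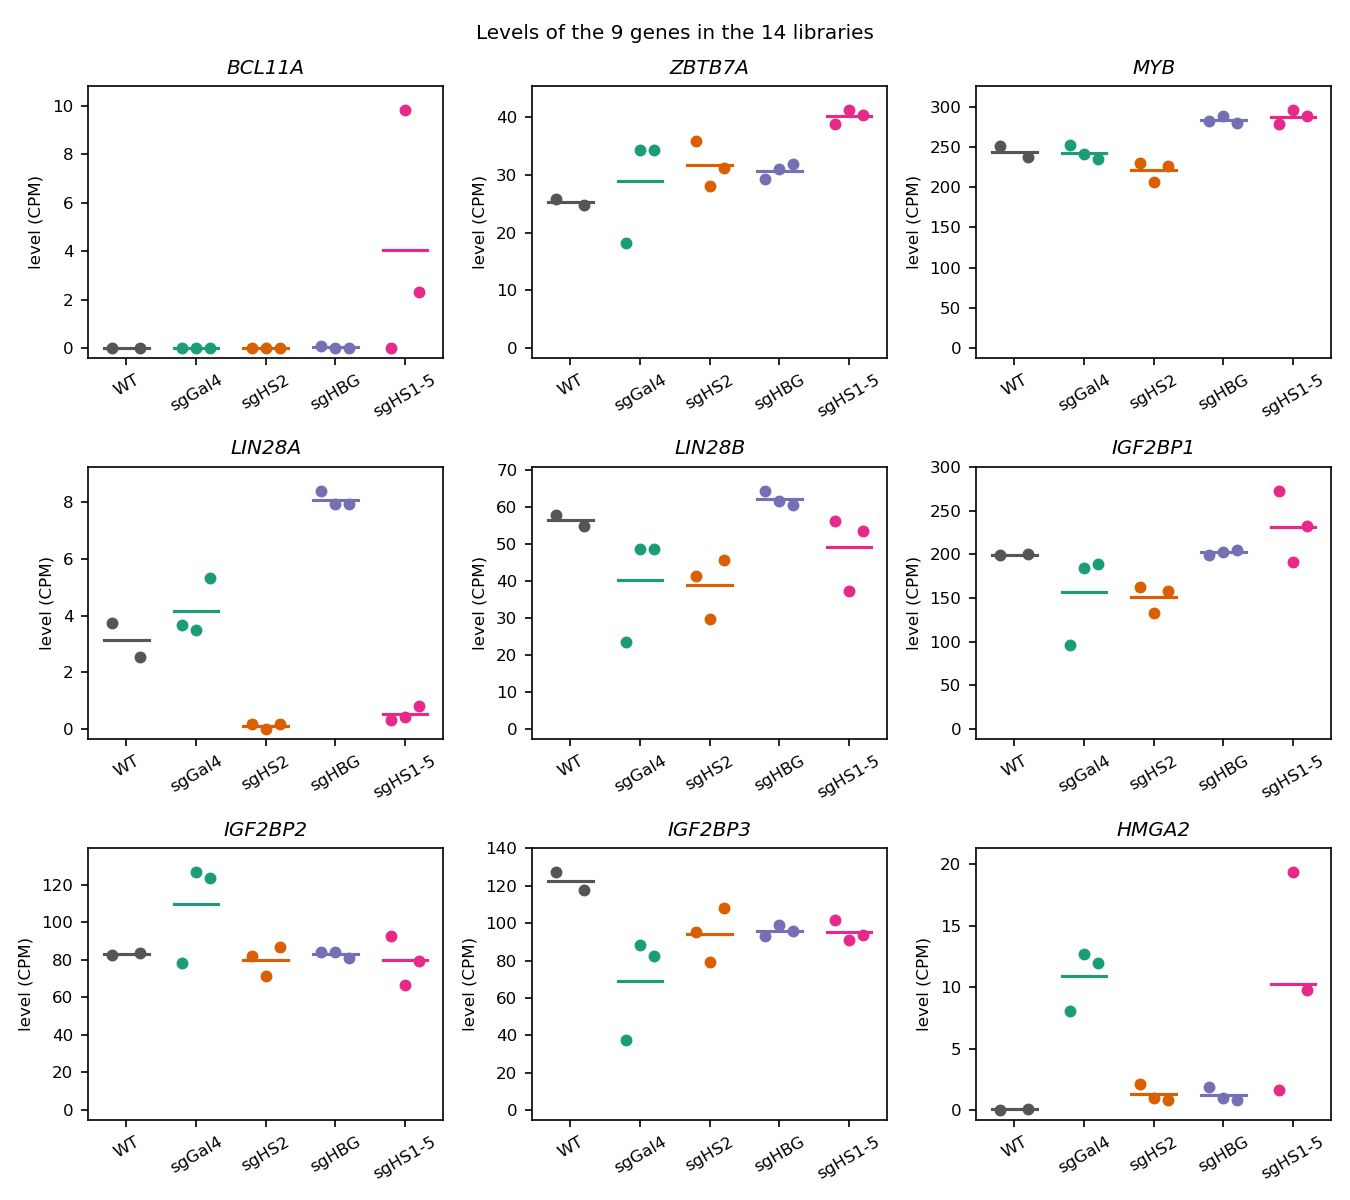
Level in CPM of each gene (linear axes, scaled per gene), with a point per library and a line at the group mean, for WT (n = 2) and the 4 guide groups (n = 3). LIN28A was lowest in sgHS2 (mean 0.12 CPM) and highest in sgHBG (8.09 CPM), and BCL11A reached 9.83 CPM in a single sgHS1-5 library.

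Levels between genes were compared per transcript length, as the reads per kilobase of transcript in a library of standard size (RPKM) deposited by the authors. MYB was highest, with group means of 61.9 to 83.7 RPKM. IGF2BP1 had means of 17.6 to 27.4, IGF2BP2 of 20.6 to 28.1 and IGF2BP3 of 17.1 to 34.1 RPKM. LIN28B (7.48 to 12.4 RPKM) and ZBTB7A (7.42 to 11.2 RPKM) lay lower. The last 3 genes stayed at low means, with LIN28A at 0.021 to 2.09, HMGA2 at 0.038 to 3.61 and BCL11A at 0 to 1.06 RPKM. The sgGal4 means include sgGal4 1, whose RPKM total over all genes (1296148) was the highest of the libraries.

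Calls rest on edgeR's quasi-likelihood test, with Benjamini-Hochberg adjustment over all 14406 genes and a threshold of 0.05. BCL11A had 10 or more reads in libraries of a single group only, sgHS1-5, and so passed the filter through the group where it was high. It is left out of the following counts, which are over the other 8 genes. Against sgGal4, 2 of the 8 genes were called in sgHS2, both lower, where 30.1% of all genes tested were called. In sgHBG against sgGal4, 1 was higher and 1 lower (24.7% of all genes called), and in sgHS1-5 against sgGal4, 2 were higher and 2 lower (40.4% of all genes). In sgGal4 against WT, 1 was higher and 1 lower, beside 42.4% of all genes. Against WT, 1 was higher and 1 lower in sgHS2 (33.1% of all genes), 1 higher in sgHBG (33.6%), and 3 higher and 1 lower in sgHS1-5 (42.9%). Between guides, 2 were lower in sgHS2 than in sgHBG (8.91% of all genes). In sgHS1-5, 1 was higher and 1 lower than in sgHBG (25.2%), and 4 were higher than in sgHS2 (38.9%). With 1 to 4 of 8 genes called, the shares stood on both sides of these backgrounds. Comparisons against a common group share its libraries and are not independent of each other.

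**Figure D2:**
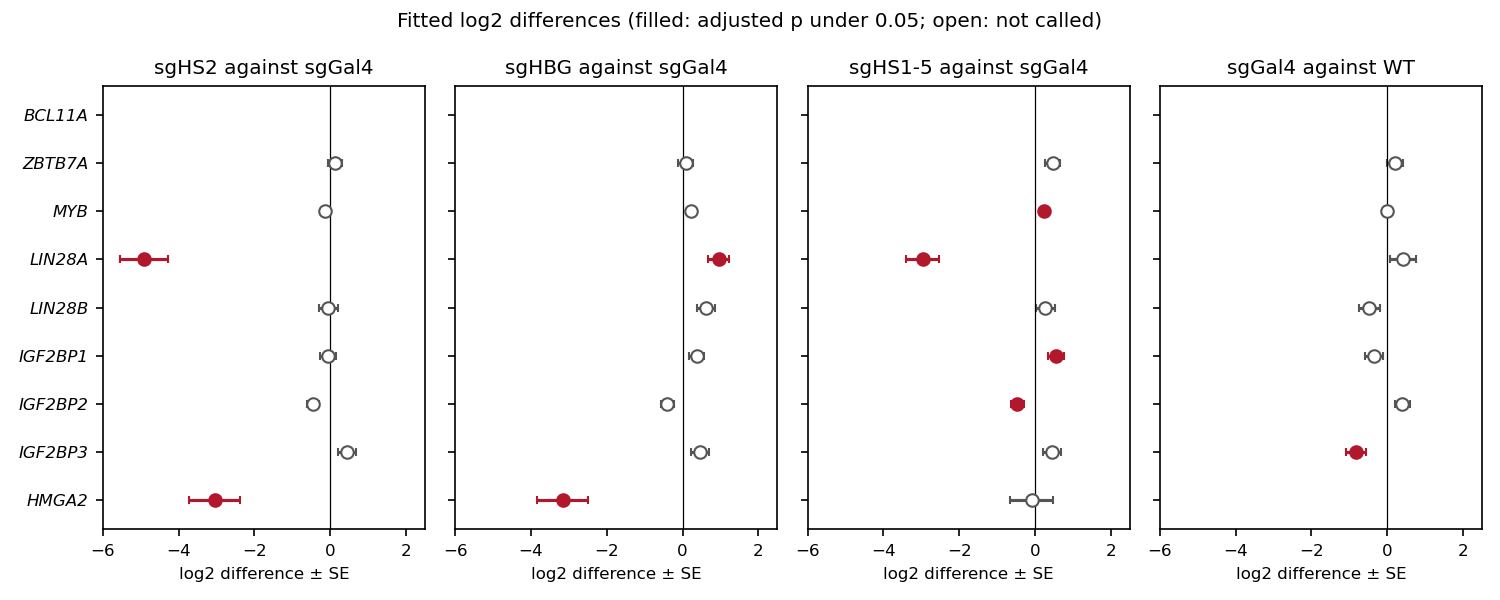
Fitted log2 difference with its standard error (SE) for each gene in 4 comparisons, filled where the adjusted p was under 0.05. Values fitted against a group with 3 reads or fewer are left out (BCL11A throughout, and HMGA2 against WT). LIN28A lies at -4.92 in sgHS2 and at 0.95 in sgHBG against sgGal4.

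BCL11A, the repressor that binds the γ-globin promoters and is also a factor of B lymphocytes, was not detected in most libraries. It had 0 reads in both WT, all 3 sgGal4 and all 3 sgHS2 libraries, and 1, 0 and 0 reads in the sgHBG libraries. The sgHS1-5 libraries had 0, 72 and 17 reads, which are 0, 9.83 and 2.30 CPM. By reads, the signal was thus in sgHS1-5 2 and 3 and not in sgHS1-5 1, so the groups overlapped at 0. The gene passed the filter on low counts through these 2 libraries. Over the group, sgHS1-5 was at least 40.2-fold higher than sgGal4, at least 30.3-fold higher than WT and at least 44.9-fold higher than sgHS2, taking 3 reads per group for a count of 0. The ratio to the single read of sgHBG was 139.2 (95% exact binomial interval 24.3 to 5557, counting error only). No p is given, because a gene that passes the filter through its high group is selected for a difference. Without sgHS1-5 2, or without sgHS1-5 3, the gene no longer passed the filter. The authors' RPKM table lists BCL11A above 0 in 2 libraries with 0 reads in the count table, at 0.0216 RPKM in sgHS1-5 1 and 0.00994 RPKM in sgHBG 3, so its absence there holds for the counts only.

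BCL11A itself met the rule that picked the 139 transcripts, so sharing their presence in sgHS1-5 follows from that rule. The BCL11A level in sgHS1-5 3 was 23.4% of that in sgHS1-5 2 (17 and 72 reads), and the sum of the 139 transcripts was 24.2%. The highest of those transcripts were CXCR4, a chemokine receptor (2.59, 83.4 and 18.8 CPM in sgHS1-5 1 to 3), ELANE, neutrophil elastase (2.11, 73.6 and 13.5 CPM), and IRF8, a transcription factor of myeloid and lymphoid cells (2.92, 66.0 and 11.6 CPM). They were at or under 0.194 CPM in every library outside sgHS1-5. Markers of B cells were higher in sum, though not each of them. All 8 had reads in each sgHS1-5 library, with sums of 33.04, 164.5 and 60.6 CPM, against 16.8 to 28.9 CPM with 6 or 7 of 8 detected in the other groups. MS4A1 (CD20) was at 0 in the 11 libraries outside sgHS1-5 and at 2.43, 38.9 and 9.60 CPM within it, and the B cell factor PAX5 was at 1.62, 36.6 and 8.92 CPM there and at most 0.901 CPM elsewhere. The B cell marker FCRLA, at 7.29, 14.1 and 8.92 CPM, was below its 16.2 to 19.6 CPM in sgHS2. Rises were not limited to B cell markers, but did not hold for each T cell or liver marker. In sgHS1-5 1 to 3, the T cell marker LCK was at 0.648, 5.19 and 1.62 CPM. CD3E was also highest in sgHS1-5 2, and CD3G was not. CD2, CD28 and TRAT1 were at most 0.273 CPM in these libraries, and CD3D was at 25.6, 22.3 and 27.6 CPM. The liver marker SERPINA1 was at 0.486, 14.1 and 5.95 CPM in them. ALB and APOB were at 0 in all of them, and APOA1, AFP and TTR at most 0.676 CPM. Of the dendritic cell markers, IL3RA and CLEC4C were at 0 in every library, and LILRA4 and GZMB at most 0.273 CPM. TCF4 was at 42.8, 66.4 and 40.8 CPM in sgHS1-5 1 to 3 and at 17.3 to 59.6 CPM elsewhere. IRF7, at 9.07, 10.4 and 10.95 CPM in sgHS1-5, was below its 11.2 to 29.1 CPM elsewhere. Whether sgHS1-5 2 and 3 hold RNA of other cells or of another library was not tested, and the BCL11A reads are given with that limit.

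**Figure D3:**
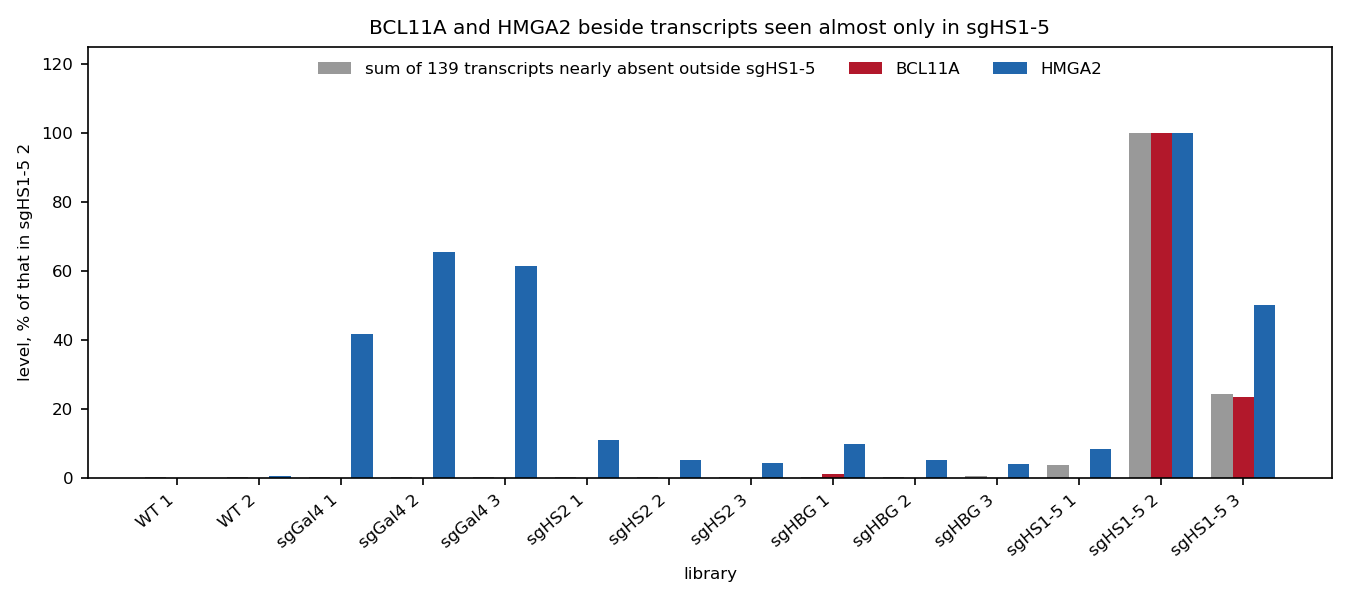
Level of BCL11A, of HMGA2 and of the summed 139 transcripts nearly absent outside sgHS1-5, in each library as a percentage of the level in sgHS1-5 2 (linear axis from 0). In sgHS1-5 3, BCL11A is at 23.4% (17 against 72 reads), the sum at 24.2% and HMGA2, also present in all guide groups, at 50.2%. Single transcripts of the sum lie on both sides of it.

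ZBTB7A, the repressor that acts next to BCL11A on the γ-globin promoters, was expressed throughout. Its levels were 25.9 and 24.8 CPM in WT, 18.2, 34.3 and 34.2 CPM in sgGal4, 35.9, 28.1 and 31.2 CPM in sgHS2, 29.2, 31.0 and 31.9 CPM in sgHBG, and 38.9, 41.2 and 40.4 CPM in sgHS1-5. All sgHS1-5 libraries lay above all others, and sgGal4 1 was the lowest of the 14. ZBTB7A rose in sgHS1-5 against WT by a log2 difference of 0.67 ± 0.21 (SE, 1.59-fold, adjusted p = 0.0241) and was not called against sgGal4 (0.47 ± 0.19, adjusted p = 0.0656), sgHBG (0.39, 0.156) or sgHS2 (0.34, 0.173). With all libraries, no pair of neighbouring groups in the order of means (sgHS1-5, sgHS2, sgHBG, sgGal4, WT) was called, although every sgHS1-5 library was above every sgHS2 library. The call against WT was lost without WT 1 (adjusted p 0.102), WT 2 (0.134) or sgHS1-5 3 (0.0509). With sgGal4 1 left out, sgHS1-5 was called above all 3 of WT (0.67, adjusted p 0.000111), sgHBG (0.39, 0.00396) and sgHS2 (0.34, 0.0061), but not above sgGal4 (0.23, 0.0722), and sgGal4 (0.44, 0.00455), sgHS2 (0.33, 0.0159) and sgHBG (0.28, 0.0344) were called above WT. Leaving out sgGal4 2 or 3 gave a call against sgGal4 (0.60, adjusted p 0.0378 and 0.0367).

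MYB differed little, and with little spread within groups. The levels were 251 and 238 CPM in WT, 253, 242 and 235 CPM in sgGal4, 230, 207 and 226 CPM in sgHS2, 282, 288 and 280 CPM in sgHBG, and 279, 296 and 288 CPM in sgHS1-5. The sgHBG and sgHS1-5 libraries lay above all others and the sgHS2 libraries below all others. MYB was higher in sgHS1-5 than in sgHS2 (log2 0.38 ± 0.08, adjusted p = 0.00265) and 1.28-fold lower in sgHS2 than in sgHBG (-0.36 ± 0.08, 0.0158). It was higher in sgHS1-5 than in sgGal4 (0.24 ± 0.08, 0.0283) and WT (0.24 ± 0.09, 0.049). In sgHBG the differences from sgGal4 (0.22 ± 0.08, 0.0603) and WT (0.21 ± 0.09, 0.0843) were not called, nor were those of sgHS2 from sgGal4 (-0.14, 0.22) and WT (-0.14, 0.243). No neighbouring groups in the order of means (sgHS1-5, sgHBG, WT, sgGal4, sgHS2) were called apart.

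The smaller MYB calls rested on few libraries. Leaving out any single library kept the call of sgHS1-5 over sgHS2, which ended with sgHS1-5 2 and 3 both removed (0.34, adjusted p 0.065). The call against WT was kept only without sgGal4 1 or without sgHS2 2 and lost for each of the other 12 libraries (adjusted p 0.0547 to 0.275). The call against sgGal4 was lost without sgGal4 2 (0.0625), sgGal4 3 (0.0788), sgHBG 1 (0.0532), sgHS1-5 2 (0.0618) or sgHS1-5 3 (0.0688). That of sgHS2 below sgHBG was lost without sgHS2 2 (0.0613), sgHBG 1 (0.0525), sgHBG 2 (0.0717) or sgHBG 3 (0.0581). Without sgGal4 1, MYB was also called higher in sgHBG than in sgGal4 (0.25, 0.0138) and WT (0.21, 0.0171).

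The other genes of fetal globin silencing were a list of 32 factors that work with or beside the repressors, of which 31 were tested. Of all genes, 30.1%, 24.7% and 40.4% were called in sgHS2, sgHBG and sgHS1-5 against sgGal4, and 42.4% in sgGal4 against WT. The list was not called more often than these shares. In sgHS2, 5 rose and 3 fell against sgGal4 (median log2 of the list -0.04, of all genes -0.02). SPOP, a ubiquitin ligase adaptor, fell by -0.41 ± 0.09 (adjusted p = 0.00491). SOX6, a partner of BCL11A, rose by 1.13 ± 0.30 (adjusted p = 0.0133) and BCOR, a corepressor, by 0.70 ± 0.18 (0.0124). In sgHBG, 1 rose and 4 fell (list median -0.01, all genes 0.00), with BCOR up by 0.64 ± 0.18 (0.023), SPOP down by -0.36 ± 0.09 (0.0138) and EIF2AK1, the heme-regulated kinase also called HRI, down by -0.47 ± 0.09 (0.00251). In sgHS1-5, 6 rose and 4 fell (list median 0.14, all genes 0.02). BCOR was up by 0.88 ± 0.18 (0.0027), the lymphoid factor IKZF1 by 1.28 ± 0.24 (0.00148), and EIF2AK1 down by -0.49 ± 0.09 (0.00107). IKZF1, a gene of lymphoid cells, averaged 96.8 ± 39.9 CPM (SD, n = 3) in sgHS1-5, the group whose B cell markers summed to 33.04, 164.5 and 60.6 CPM, and their part in its rise was not tested. In sgGal4 against WT, 7 rose and 6 fell (list median -0.04, all genes 0.03). GATAD2B and CHD4, subunits of the NuRD corepressor, rose by 1.09 ± 0.16 (0.000225) and 0.59 ± 0.09 (0.000366), while RBBP4, another subunit, fell by -0.54 ± 0.09 (0.000325).

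Genes related to MYB, mainly chromosomal neighbours, family members, cofactors and known targets, were a list of 20 with 18 tested. The counts stand beside 40.4% of all genes called in sgHS1-5, 30.1% in sgHS2 and 24.7% in sgHBG against sgGal4, and 42.4% in sgGal4 against WT. In sgHS1-5 against sgGal4, 6 rose and 3 fell (list median 0.49, all genes 0.02). MYBL2, a family member of the cell cycle, rose by 0.78 ± 0.15 (adjusted p = 0.00207), MYBBP1A, a MYB-binding nucleolar protein, rose by 0.56 ± 0.10 (0.00113), and the cofactor TAF12 fell by -0.92 ± 0.13 (0.000265). In sgHS2, 0 rose and 4 fell against sgGal4 (list median 0.08, all genes -0.02), among them MYBL2 (-0.55 ± 0.16, 0.0185), MYBBP1A (-0.33 ± 0.10, 0.0276) and the cofactor MEN1 (-0.25 ± 0.09, 0.0449). In sgHBG, 1 rose and 2 fell (list median 0.03, all genes 0.00), and RUNX1 rose by 0.87 ± 0.18 (0.00417) while PPIL4 (-0.42 ± 0.09, 0.00414) and TAF12 (-0.43 ± 0.13, 0.0314) fell. In sgGal4 against WT, 4 rose and 1 fell (list median -0.04, all genes 0.03). KIT, the receptor of stem cell factor, rose by 2.59 ± 0.21 (2.4e-06) and MYBBP1A by 1.12 ± 0.12 (1.21e-05), and MYBL2 fell by -1.53 ± 0.17 (1.65e-05). MYB itself was not called there (-0.01 ± 0.09, 0.967).

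The remaining 6 genes belong to the LIN28 and let-7 axis and are known let-7 targets, so a match to the let-7 seed in their 3′ UTR is part of why they are grouped and is shown as a description. The mature let-7 family of RefSeq (GRCh38.p14) comprised 14 entries under 11 names with the same seed, bases 2 to 8, shown in capitals for a few of them.
hsa-let-7a-5p: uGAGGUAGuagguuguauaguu
hsa-let-7b-5p: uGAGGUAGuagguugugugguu
hsa-let-7g-5p: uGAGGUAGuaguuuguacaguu
hsa-miR-98-5p: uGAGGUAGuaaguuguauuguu

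The match to this seed, CTACCTC on the transcript strand, was searched in the 3′ UTR of 1 transcript per gene in GENCODE 29 (GRCh38). It occurred 4 times in each of LIN28B (3′ UTR of 4549 bases), IGF2BP1 (6206 bases) and HMGA2 (3003 bases). It occurred once in LIN28A (3264 bases), IGF2BP2 (1792 bases) and IGF2BP3 (2153 bases), and had 0 occurrences in BCL11A, ZBTB7A and MYB (3212, 3388 and 1193 bases). Of 17931 genes with a 3′ UTR of at least 100 bases, 9.2% held the match, but the mean 3′ UTR of those genes was 1668 bases, shorter than each of the 6. The first match of each gene is shown 5′ to 3′ in GRCh38, with the match in capitals, because these are the bases that let-7 reads. A match is a description of the letters and not a measured site.
LIN28A, chr1:26427342-26427369, plus strand: tggagtgcacagcctattgaaCTACCTC
LIN28B, chr6:105078806-105078833, plus strand: tcctttacccggttgcaaagtCTACCTC
IGF2BP1, chr17:49051055-49051082, plus strand: caatgctgtgtgcgaagtaaaCTACCTC
IGF2BP2, chr3:185644221-185644248, minus strand: gagaaaaacacacagaagaagCTACCTC
IGF2BP3, chr7:23311796-23311823, minus strand: taaacgtgcatttttactcaaCTACCTC
HMGA2, chr12:65963292-65963319, plus strand: gggggcgccaacgttcgatttCTACCTC

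LIN28A, the embryonic paralog that recruits enzymes to add uridines to let-7 precursors, was a low transcript that differed between most groups. Its levels were 3.75 and 2.55 CPM in WT (39 and 28 reads), and 3.69, 3.48 and 5.32 CPM in sgGal4 (26, 36 and 58 reads). The sgHS2 libraries had 0.175, 0 and 0.184 CPM (2, 0 and 2 reads), the sgHBG libraries 8.41, 7.94 and 7.94 CPM (84, 89 and 91 reads), and the sgHS1-5 libraries 0.324, 0.410 and 0.811 CPM (2, 3 and 6 reads). No sgHS2 library reached the lowest sgHS1-5 library, no sgHS1-5 library reached any control, and every sgHBG library was above every other. WT and sgGal4 overlapped.

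LIN28A fell in sgHS2 against sgGal4 by a log2 difference of -4.92 ± 0.64 (SE), a 30.2-fold lower level (adjusted p = 9.88e-06), and against WT by -4.51 ± 0.66 (22.8-fold, 2.41e-05). It fell in sgHS1-5 by -2.97 ± 0.45 against sgGal4 (7.82-fold, 0.000141) and by -2.56 ± 0.47 against WT (5.88-fold, 0.000493). The level rose in sgHBG by 0.95 ± 0.29 against sgGal4 (1.93-fold, 0.0302) and by 1.36 ± 0.33 against WT (2.57-fold, 0.00716). Between guides, sgHS2 was 58.4-fold below sgHBG (-5.87 ± 0.64, 1.66e-05) and sgHS1-5 was 15.1-fold below sgHBG (-3.92 ± 0.44, 2.48e-05). In sgHS1-5 it was higher than in sgHS2 by 1.95 ± 0.72 (0.0297), on 11 against 4 reads. In the order sgHBG, sgGal4, WT, sgHS1-5, sgHS2, the only neighbours not called apart were sgGal4 and WT (0.41 ± 0.34, 0.354).

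The 6 falls of LIN28A in sgHS2 and sgHS1-5 were called in each of the 29 alternative fits. The rise in sgHBG over sgGal4 was called in 24 and lost without sgGal4 1 (0.87, adjusted p 0.0528), sgGal4 2 (0.83, 0.0869), sgHBG 1 (0.92, 0.0964), sgHBG 2 (0.96, 0.0866) or sgHBG 3 (0.96, 0.087). That over WT was lost without WT 2 (adjusted p 0.104). The difference of sgHS1-5 from sgHS2 was called in 20 of 28 fits and lost, among others, without sgHS2 2 (1.48, 0.115), sgHS1-5 2 (2.12, 0.0535) or sgHS1-5 3 (1.47, 0.214).

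LIN28B, the paralog of fetal blood that holds let-7 precursors in the nucleus, carried most of the LIN28 transcripts and was not called in any of the 10 comparisons. Its levels were 57.9 and 54.9 CPM in WT, 23.4, 48.8 and 48.6 CPM in sgGal4, 41.4, 29.7 and 45.8 CPM in sgHS2, 64.4, 61.8 and 60.6 CPM in sgHBG, and 56.4, 37.4 and 53.7 CPM in sgHS1-5. The lowest libraries were sgGal4 1 and sgHS2 2, and the 3 sgHBG libraries were the highest. The differences from sgGal4 were -0.05 ± 0.25 in sgHS2 (adjusted p = 0.895), 0.62 ± 0.24 in sgHBG (0.0807) and 0.28 ± 0.25 in sgHS1-5 (0.391), and sgGal4 differed from WT by -0.48 ± 0.27 (0.176). In the order sgHBG, WT, sgHS1-5, sgGal4, sgHS2, no neighbours were called apart with all libraries. Without sgGal4 1, sgHS2 was called below WT (-0.53, 0.0184) and below sgHBG (-0.67, 0.00688), and sgHBG was not called above sgGal4 (0.35, 0.135).

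Within each library, the LIN28A share of the RPKM of both LIN28 genes does not depend on scaling between libraries. It was 6.28% ± 1.07 (SD, n = 2) in WT, 11.5% ± 3.57 (SD, n = 3) in sgGal4 and 14.5% ± 0.18 (SD, n = 3) in sgHBG. The share was 0.251% ± 0.23 (SD, n = 3) in sgHS2 and 1.13% ± 0.61 (SD, n = 3) in sgHS1-5. The highest share of sgHS2 (0.456%) was under the lowest of sgHS1-5 (0.527%), and the highest of sgHS1-5 (1.74%) under the lowest of WT (5.53%).

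The small RNAs themselves were not measured. Rows for let-7 precursors held 0 to 2 reads over all libraries, and of the host transcripts only MIRLET7DHG, HUWE1 (host of let-7f-2 and miR-98) and WDR82 (host of let-7g) were tested. MIRLET7DHG rose in sgHS1-5 against sgGal4 (2.13 ± 0.51, adjusted p = 0.00524), from a mean of 0.755 to 3.40 CPM. In sgHS2 and sgHBG against sgGal4, 0 of the 3 were called, beside 30.1% and 24.7% of all genes.

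Genes that make, trim or act with let-7 were a list of 22 with 20 tested. Against sgGal4, 2 rose in sgHS2, 3 in sgHBG and 4 in sgHS1-5, and 0 fell in each (list medians 0.15, 0.20 and 0.30, all genes -0.02, 0.00 and 0.02). Of all genes, 30.1%, 24.7% and 40.4% were called in these comparisons, each a larger share than of this list. In sgGal4 against WT the share of all genes was 42.4%. DGCR8, the RNA-binding subunit of the Microprocessor, rose in sgHBG (0.45 ± 0.12, adjusted p = 0.0135) and sgHS1-5 (0.90 ± 0.12, 9.91e-05). DIS3L2, the nuclease that degrades uridylated let-7 precursors, rose in sgHS1-5 (0.58 ± 0.14, 0.00573). TNRC6C, an Argonaute partner, rose in sgHS2 (0.55 ± 0.16, 0.0197) and sgHBG (0.59 ± 0.16, 0.0183), and ZC3H12A, a nuclease of precursor loops, rose in sgHS2 (1.03 ± 0.18, 0.000906) and sgHS1-5 (0.73 ± 0.18, 0.00695). In sgGal4 against WT, 2 rose and 4 fell (list median -0.12, all genes 0.03), and the precursor exporter XPO5 fell by -0.92 ± 0.16 (0.000598). These directions depended on the libraries kept: without sgGal4 1, sgHS2 2, sgHS1-5 2 and sgHS1-5 3, 11 of the list were called in sgHS2 against sgGal4 with 7 of them higher, 10 in sgHBG with 7 higher, and 10 in sgHS1-5 with 6 higher. In that fit 58.7%, 55.5% and 47.8% of all genes were called in these comparisons, so the larger counts are near the share of all genes.

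Other known let-7 targets were a list of 28 with 23 tested. The counts stand beside 30.1%, 24.7% and 40.4% of all genes called in sgHS2, sgHBG and sgHS1-5 against sgGal4, and 38.9% between sgHS1-5 and sgHS2. In sgHS2, 1 rose and 8 fell against sgGal4 (list median -0.26, all genes -0.02). The cell cycle genes CDC25A (-0.82 ± 0.10, adjusted p = 5.45e-05) and CDK6 (from 169 to 84.6 CPM, 0.000846) fell, and PRTG, a developmental surface protein, fell from 8.48 to 0.332 CPM (-4.58 ± 0.55, 2.54e-05). In sgHBG, 2 rose and 2 fell (list median 0.02, all genes 0.00), with PRTG lower again (-2.69 ± 0.41, 0.000621) and ARID3B higher (0.56 ± 0.17, 0.0274). In sgHS1-5, 7 rose and 4 fell (list median 0.13, all genes 0.02), with MYC (1.13 ± 0.18, 0.000434) and E2F2 (0.68 ± 0.10, 0.000246) higher and PRTG lower (-3.44 ± 0.49, 0.00014). Between sgHS1-5 and sgHS2, 12 rose and 2 fell (list median 0.58, all genes 0.03), led by CDC25A (1.33 ± 0.10, 1.16e-06) and E2F2 (1.14 ± 0.10, 4.85e-06). Without the 4 libraries that stood apart, 17 of the 23 were called there, 13 of them higher, where 51.2% of all genes were called.

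IGF2BP1, IGF2BP2 and IGF2BP3 bind and stabilize mRNAs, and the first is the member linked to fetal globin. IGF2BP1 had 199 and 200.5 CPM in WT, 96.0, 185 and 189 CPM in sgGal4, 162, 133 and 158 CPM in sgHS2, 200, 203 and 205 CPM in sgHBG, and 273, 191 and 232 CPM in sgHS1-5. All sgHS2 libraries lay below those of WT, sgHBG and sgHS1-5, and sgGal4 1 was lowest. IGF2BP1 rose in sgHS1-5 against sgHS2 by 0.62 ± 0.21 (1.53-fold, adjusted p = 0.0338) and against sgGal4 by 0.56 ± 0.21 (1.48-fold, 0.0477), and no other pair was called. In the order sgHS1-5, sgHBG, WT, sgGal4, sgHS2, no neighbours were called apart with all libraries.

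The call of IGF2BP1 against sgGal4 held without sgGal4 2, sgGal4 3 or sgHS1-5 2 and was lost for each of the other 11 libraries (adjusted p 0.0535 to 0.156). Without sgGal4 1 the difference was 0.31 (0.0535), and with offsets for the length trend of each library it was 0.19 (0.237). The call against sgHS2 was lost without WT 1 (0.0508), WT 2 (0.0507), any sgHS2 library (0.0599, 0.113 and 0.0661 for 1 to 3), sgHS1-5 1 (0.119) or sgHS1-5 3 (0.0713). With length offsets it was 0.38 (0.0254). Without sgGal4 1, sgHS2 was also called below WT (-0.40, 0.0143) and sgHBG (-0.42, 0.0145). The apparent length of IGF2BP1, computed from its reads and RPKM, was 8828 bases, the longest of the 9, against 3122 (HMGA2) to 4898 bases (LIN28B) for the rest.

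IGF2BP2, a member also present in many adult tissues, had 82.8 and 83.5 CPM in WT, 78.3, 127 and 124 CPM in sgGal4, 82.0, 71.4 and 86.9 CPM in sgHS2, 84.1, 84.3 and 81.2 CPM in sgHBG, and 93.0, 66.5 and 79.6 CPM in sgHS1-5. Libraries sgGal4 2 and 3 stood above all others while sgGal4 1 lay among them. IGF2BP2 fell in sgHS1-5 against sgGal4 by -0.46 ± 0.17 (1.38-fold lower, adjusted p = 0.045) with overlapping libraries. In sgHS2 (-0.45 ± 0.17, 0.0596) and sgHBG (-0.40 ± 0.17, 0.0986) it was not called. In the order sgGal4, WT, sgHBG, sgHS2, sgHS1-5, no neighbours were called apart with all libraries. The single call was kept without sgGal4 1, sgHS2 2 or sgHS1-5 1 and lost for each of the other 11 libraries (0.0551 to 0.165).

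Without sgGal4 1, IGF2BP2 was higher in sgGal4 than in WT by 0.59 (adjusted p 0.00151) and lower than sgGal4 in sgHS2 (-0.64, 0.000645), sgHBG (-0.59, 0.00189) and sgHS1-5 (-0.65, 0.000578). With length offsets and all libraries, the 3 guides were below sgGal4 too (-0.51, -0.52 and -0.56, adjusted p 0.00925, 0.0101 and 0.00503), and sgGal4 against WT was 0.36 (0.0649). The sgHS2 call also appeared without sgHS1-5 2 (-0.45, 0.0442).

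IGF2BP3, the oncofetal member, was highest in WT. It had 127.5 and 117.9 CPM in WT, 37.3, 88.4 and 82.2 CPM in sgGal4, 95.1, 79.4 and 108 CPM in sgHS2, 93.1, 99.1 and 96.1 CPM in sgHBG, and 102, 91.1 and 93.7 CPM in sgHS1-5. Both WT libraries lay above all 12 guide libraries. IGF2BP3 fell in sgGal4 against WT by -0.82 ± 0.26 (1.76-fold lower, adjusted p = 0.0218), and the other guides were not called against WT (-0.38, -0.35 and -0.36 for sgHS2, sgHBG and sgHS1-5, adjusted p 0.289, 0.328 and 0.287). In the order WT, sgHBG, sgHS1-5, sgHS2, sgGal4, no neighbours were called apart with all libraries, although WT lay above sgHBG in every library. The sgGal4 call was lost without WT 1 (-0.76, 0.116) or WT 2 (-0.88, 0.0721). Without sgGal4 1 the difference was -0.52 (0.00236), and sgHS2 (-0.38, 0.0101), sgHBG (-0.35, 0.0147) and sgHS1-5 (-0.36, 0.0118) were then called below WT as well. Of the 50-base stretches of the IGF2BP3 transcript, 44.5% also occur in another gene, mostly in MALSU1 on the opposite strand (at most 379 reads in a library). The labelled kit, TruSeq RNA v2, does not mark strand, so reads of that stretch cannot be told apart.

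**Figure D4:**
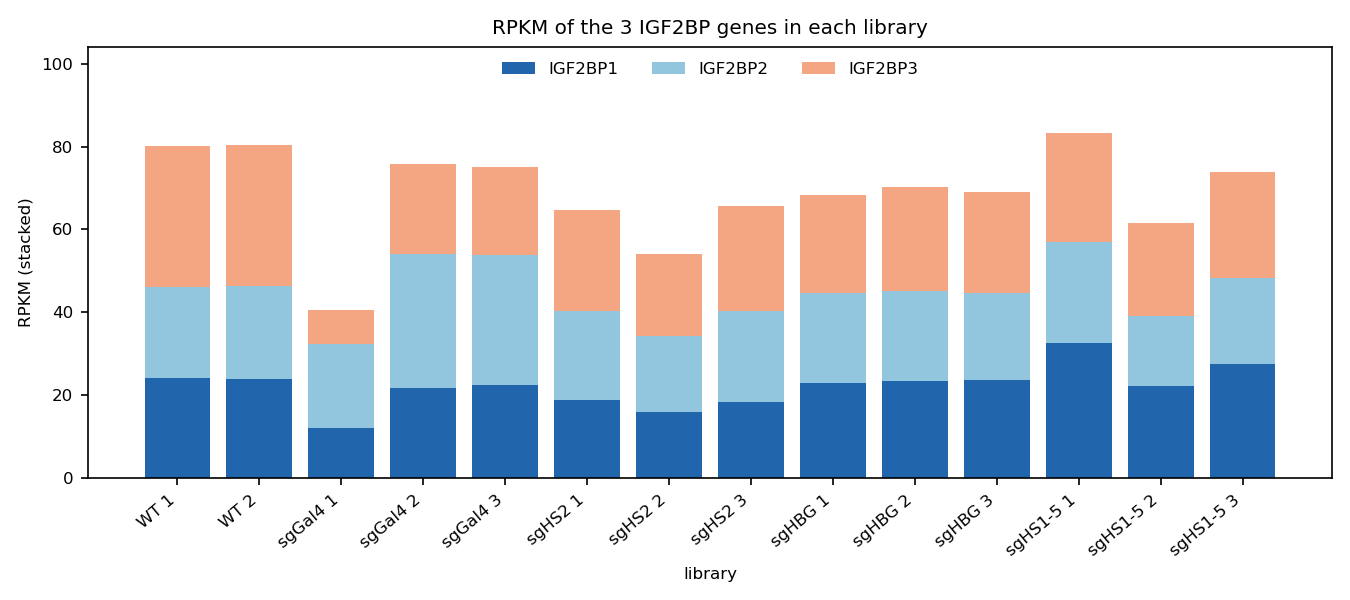
RPKM of IGF2BP1, IGF2BP2 and IGF2BP3 stacked for each library (linear axis from 0). IGF2BP2 is the largest part of every sgGal4 bar, IGF2BP3 that of the WT, sgHS2 and sgHBG bars, and the sgGal4 1 bar is the lowest at 40.6 RPKM. The RPKM total over all genes was highest in sgGal4 1 (1296148), so its bar is not on the scale of the others.

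The mix of the 3 genes was described by their shares of the summed RPKM within a library. IGF2BP2 made up 45.1% ± 4.76 (SD, n = 3) in sgGal4, from 41.8% to 50.5%, and between 27.4% and 34.1% in every library of the other groups. IGF2BP3 made up 42.5% ± 0.28 (SD, n = 2) in WT, 25.8% ± 4.83 in sgGal4, 37.7% ± 1.04 in sgHS2, 35.3% ± 0.45 in sgHBG and 34.3% ± 2.45 in sgHS1-5 (SD, n = 3 each). The share of IGF2BP1 was 29.8% ± 0.11 in WT and 37.5% ± 1.65 in sgHS1-5, where its lowest library (35.9%) was above the highest of any other group. The sums were 80.2 and 80.4 RPKM in WT and ranged from 40.6 RPKM in sgGal4 1 to 83.3 RPKM in sgHS1-5 1 among the guide libraries. The RPKM of all genes summed to 1296148 in sgGal4 1, against 629542 to 819619 in the other libraries. Sums of sgGal4 1 are therefore not on the scale of the others. The shares within a library are given without a test.

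Known IGF2BP targets and genes that write, read or erase N6-methyladenosine, the mark the IGF2BP proteins read, were a list of 25 with 23 tested. This list was called less often than all genes: 30.1%, 24.7% and 40.4% in sgHS2, sgHBG and sgHS1-5 against sgGal4, and 42.4% in sgGal4 against WT. Against sgGal4, 1 rose and 3 fell in sgHS2, 0 rose and 2 fell in sgHBG, and 4 rose and 3 fell in sgHS1-5 (list medians 0.00, -0.10 and 0.02, all genes -0.02, 0.00 and 0.02). CD44, a surface receptor and IGF2BP target, fell in sgHS2 (-1.02 ± 0.12, adjusted p = 5.35e-05), as did CTNNB1, β-catenin (-0.33 ± 0.09, 0.0156). H19, an imprinted RNA bound by IGF2BP1, fell from 4.84 CPM in sgGal4 to 0.403 CPM in sgHS2 (-3.53 ± 0.59, 0.000436) and 0.714 CPM in sgHBG (-2.75 ± 0.52, 0.00211). MYC rose in sgHS1-5 (1.13 ± 0.18, 0.000434), as did METTL3, the methyltransferase (0.59 ± 0.12, 0.00217), while CTNNB1 fell (-0.38 ± 0.09, 0.00644). In sgGal4 against WT, 6 rose and 2 fell (list median 0.06, all genes 0.03). CD44 rose from 4.41 to 236 CPM (5.74 ± 0.16, 1.32e-09), CTNNB1 rose from 146 to 312 CPM (5.3e-06), and METTL3 fell by -0.63 ± 0.13 (0.00187).

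HMGA2, the chromatin protein whose mRNA carries 4 let-7 matches, was nearly absent in WT with 0 and 1 reads (0 and 0.091 CPM). It had 8.09, 12.7 and 11.9 CPM in sgGal4, 2.10, 0.965 and 0.829 CPM in sgHS2, 1.90, 0.981 and 0.785 CPM in sgHBG, and 1.62, 19.4 and 9.73 CPM in sgHS1-5. Every guide library was above both WT libraries, and every sgGal4 library above all of sgHS2 and sgHBG. The sgHS1-5 libraries were split, with the first at the level of sgHS2 and sgHBG and the other 2 within or above the range of sgGal4.

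HMGA2 fell in sgHS2 against sgGal4 by -3.05 ± 0.67 (8.26-fold lower, adjusted p = 0.00429) and in sgHBG by -3.17 ± 0.68 (8.995-fold lower, 0.00493), and both were called in all 29 alternative fits. Against the single WT read, the ratio was 240 for sgGal4 (95% interval 42.8 to 9520, adjusted p = 0.000447), 229 for sgHS1-5 (40.7 to 9089, 0.000534), 28.4 for sgHS2 (4.82 to 1148, 0.0444) and 25.5 for sgHBG (4.32 to 1033, 0.0516, not called). The first 2 calls also held in all 29 fits. The sgHS2 call was lost without WT 1 (0.207), WT 2 (0.134), sgHS2 1 (0.116), sgHS2 2 (0.0574), sgHS2 3 (0.0501), sgHBG 2 (0.054), sgHBG 3 (0.0513) or sgHS1-5 3 (0.0555). The sgHBG difference was called without sgGal4 1 (0.0396), sgHS1-5 1 (0.00853) or sgHS1-5 2 (0.0371).

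The sgHS1-5 values of HMGA2 turned on the libraries kept. With all 3, sgHS1-5 was above sgHBG by 3.09 ± 0.69 (8.49-fold, adjusted p = 0.0058) and above sgHS2 by 2.96 ± 0.68 (7.80-fold, 0.00409) and was not called against sgGal4 (-0.08 ± 0.57, 0.922). Without sgHS1-5 2 and 3, it was below sgGal4 (-2.75, 0.0116) and not called against sgHBG (0.43, 0.804) or sgHS2 (0.29, 0.826), where the 1 library left was taken to vary like the other groups. The level in sgHS1-5 3 was 50.2% of that in sgHS1-5 2, against 23.4% for BCL11A.

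Of markers of connective tissue cells, in which HMGA2 is a familiar gene, 8 were listed. Their sum was 4.83 to 5.10 CPM in WT, 19.6 to 21.3 in sgGal4, 8.74 to 9.76 in sgHS2, 11.2 to 13.6 in sgHBG and 18.6 to 23.0 in sgHS1-5, with 4 to 7 of the 8 detected. COL1A1 and COL1A2, at up to 14.7 and 7.61 CPM, were among those detected in every library. The fibroblast markers LUM (0 in all 14 libraries) and THY1 were at 0 in all WT, sgGal4 and sgHS2 libraries. In sgHS1-5 1, where HMGA2 was at 1.62 CPM, the markers LUM, PDGFRA and THY1 were at 0. They were also at 0 in every sgGal4 library, where HMGA2 was at 8.09 to 12.7 CPM. The sum of the 8 was 22.35, 18.57 and 22.98 CPM in sgHS1-5 1 to 3, where HMGA2 was at 1.62, 19.4 and 9.73 CPM. The part of these transcripts in the HMGA2 result was not tested.

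**Figure D5:**
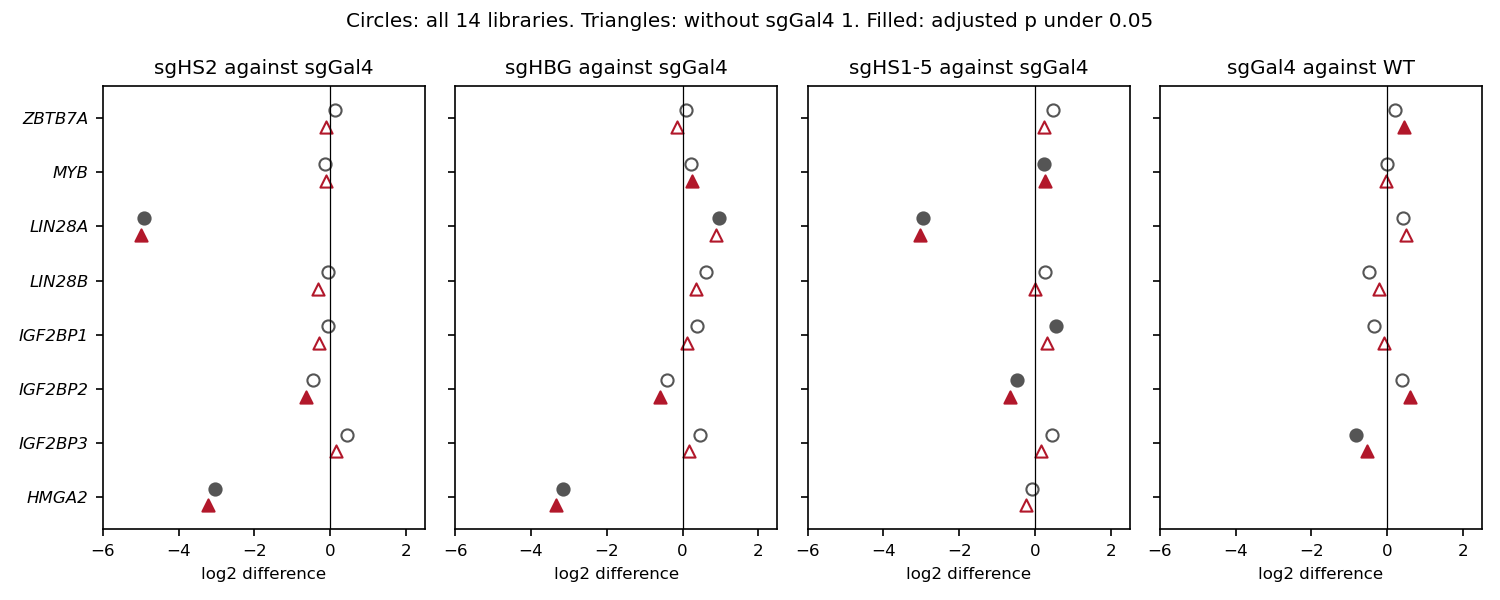
Fitted log2 differences of 8 genes in 4 comparisons with all 14 libraries (circles) and without sgGal4 1 (triangles), filled where the adjusted p was under 0.05. BCL11A, and HMGA2 against WT, are left out because their reference groups held 3 reads or fewer. IGF2BP2 is called in all 4 panels without that library, and LIN28A stays called lower in sgHS2 and sgHS1-5.

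For each of the 8 genes with a mean of at least 1 CPM, the 2 genes with the most similar group profile were taken from the 13241 genes compared, by the lowest root mean square difference of the centred log2 group means over the 5 groups. LIN28A had no close match, with LINC00624 (0.98) and FAM213A (1.03) nearest. HMGA2 was nearest to MEST, an imprinted gene (0.38), and PALD1 (0.50). MEST averaged 0.046 CPM in WT, 15.2 in sgGal4, 0.729 in sgHS2, 1.44 in sgHBG and 7.85 in sgHS1-5. The other 6 had matches under 0.1. IGF2BP2 was nearest to SPOP, a ubiquitin ligase adaptor (0.01), and PDLIM1 (0.02), IGF2BP1 to SLC12A2, an ion cotransporter (0.02), and KAT6A, an acetyltransferase (0.03), and IGF2BP3 to KEL, the Kell blood group protein (0.04), and ADAT1 (0.05). LIN28B was nearest to CMTM1 (0.08) and KBTBD8 (0.08), MYB to GPATCH11 and STAR (both 0.04), and ZBTB7A to IMP3, a nucleolar ribonucleoprotein, and BRD9 (both 0.03). The gene IMP3 is distinct from IGF2BP3, for which the same name serves as an alias. The likeness rests on 5 group means only.

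Of 5 β-like globin genes tested, whose cluster the guides were directed at, 4 were higher against sgGal4 in sgHS2, 2 in sgHBG and 2 in sgHS1-5, with 0 lower. In these comparisons, 30.1%, 24.7% and 40.4% of all genes were called. The fetal HBG2, which shares reads with its near-identical copy HBG1, rose in sgHS2 (1.52 ± 0.33, adjusted p = 0.00433) and sgHS1-5 (1.27 ± 0.33, 0.00929) and averaged 84.3 CPM in sgHBG and 94.9 CPM in sgGal4.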

How the data were processed

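RNA-seq was done on total RNA of 14 K562 libraries. The authors deposited a table of raw read counts per gene, whole numbers without normalization, and a table of RPKM values, reads per kilobase of transcript scaled to library size. Per the submitters' processing notes, TopHat, Cufflinks and DESeq were used with hg19; versions, annotation and counting settings are not given in the sources used here. Groups came from the labels. The members, gene lists and alternatives were chosen with earlier results of these data known.

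Counts were fitted with edgeR 4.0.16 (R 4.3.3): filterByExpr (minimum count 10, minimum total count 15), TMM scaling, a mean per group over all 14 libraries (9 residual degrees of freedom), the quasi-likelihood F test, and Benjamini-Hochberg adjustment over the 14406 genes tested. Log2 differences are fitted values with SE. The fit was tested on simulated data. Named are all 9 genes, up to 3 genes per list and comparison with the lowest p, and the 2 nearest profiles. Folds over 0 reads use 3 reads per group, and folds over 1 to 3 reads have exact binomial 95% intervals. Floors and intervals describe counting error alone: no molecular identifiers are named for these libraries, so PCR copies of a molecule may be counted as separate reads.

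Alternatives were RLE size factors, no filter, 1 CPM in 3 libraries, DESeq2 1.42.0, limma 3.58.1 voom, the compared groups alone, a replicate block, length-trend offsets with and without the block, each library left out, 3 sets of libraries left out, and limma-trend on log2(RPKM + 1) or log2(RPKM + 0.1), with or without a filter. RPKM folds include the added amount. No hg19 genome was used, and sequences come from GRCh38 tables.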

Additional observations from a re-analysis of the deposited data

How the results depend on the processing

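Of 2549 refitted differences of single genes, 2295 kept their side of the threshold, 141 lost a call, 113 gained one and 0 called differences reversed. Of the 2295, 88 were uncalled differences whose sign changed. The number of the 9 genes called moved by over 1.5 times as follows, and the causes were not tested. BCL11A is in these counts, although it passed the filter through its high group and was so selected for a difference. Without sgHS1-5 2 or 3 it was not tested, so the sgHS1-5 counts lose it there in any case. In the order sgHS2, sgHBG and sgHS1-5 against sgGal4, then sgGal4, sgHS2, sgHBG and sgHS1-5 against WT, then sgHS2 against sgHBG, sgHS1-5 against sgHBG and sgHS1-5 against sgHS2, the counts, BCL11A included, were 2, 2, 5, 2, 2, 1, 5, 2, 3 and 5. Leaving out each library in turn gave 2 to 3, 1 to 3, 1 to 4, 1 to 4, 1 to 6, 0 to 5, 2 to 6, 1 to 4, 2 to 4 and 2 to 6. Without sgGal4 1 and sgHS2 2 they were 4, 5, 6, 4, 6, 5, 6, 4, 5 and 5, without sgHS1-5 2 and 3 they were 2, 2, 2, 2, 2, 2, 2, 2, 1 and 0, and without all 4 they were 6, 7, 6, 5, 7, 6, 6, 4, 3 and 3. The share of all genes called also moved: it was 8.91% to 42.9% with all libraries, 23.8% to 62.3%, 9.55% to 44.3% and 43.0% to 70.2% in these 3 fits, and 16.0% to 72.1% with the compared groups alone. With the 2 compared groups alone they were 2, 2, 1, 1, 4, 6, 5, 4, 3 and 4. For sgHS1-5 against sgGal4 the count was 3 with voom, 2 with no filter, 3 for RPKM + 1 and 2 for it unfiltered, and against sgHS2 3 and 2 for these RPKM fits. For sgHS2 against WT it was 1 with voom, 1 for RPKM + 0.1 and 4 with length offsets. For sgHBG against WT it was 3 with DESeq2, 2 with no filter and 2 with length offsets.

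The replicate numbers showed no clear pairing of libraries: of 26 same-numbered pairs, 1 had a correlation of deviations over 0.1 (range -0.52 to 0.35). Deviations from a mean of 2 or 3 libraries offset each other within a group, so the check cannot exclude a pairing. With a replicate block, only BCL11A and LIN28A were called in sgHS1-5 against sgGal4, and only LIN28A in sgHS2 against WT. With block and length offsets, IGF2BP2 was added in the first, and LIN28B, IGF2BP1 and HMGA2 in the second. BCL11A was selected for a difference, as it passed the filter through its high group, so its calls are no support. The call itself was not fixed. In sgHS1-5, BCL11A was called in 19 of 23 alternative fits against sgGal4 and in 16 of 24 against WT. Length offsets shifted the median of all genes by -0.106 in sgHBG and -0.101 in sgHS1-5 against WT. Of the 70 list counts, 53 moved by over 1.5 times without the 4 libraries and 21 with length offsets. Depth limits LIN28A in sgHS2 (4 reads), BCL11A outside sgHS1-5 (1 read) and HMGA2 in WT (1 read).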
